A study of Mus musculus with 10 samples.

Results

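Actb and Tuba1b encode the building blocks of the cytoskeleton's filaments, and each was read here by a single probe design in mouse whole blood. They are 2 of 15 reference genes that the scanner files name by RefSeq accession, on an array with 60915 probes. The Tuba1b probe was chosen from a pair of candidates, of which the other carries the accession of the transferrin receptor gene Tfrc. The members were thus picked by probe name and accession, with no measured value in the rule.

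Whole blood came from 10 female C57BL/6 mice labelled as 3 months of age, each hybridised to its own 1-colour array. In the exposed group, 5 mice had received 40 µg of multi-walled carbon nanotubes (MWCNT), which are nested cylinders of carbon, by pharyngeal aspiration, in which liquid placed in the throat is drawn into the lung. Their blood was taken 56 days later. The 5 control mice had received the vehicle. File headers place the 8 arrays of all controls and of MWCNT replicates 1 to 3 in a common scan (run 1) and MWCNT replicates 4 and 5 in another (run 2), which held no control.

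Beta-actin, the product of Actb, polymerises into the actin filaments that shape the cell cortex and drive crawling, phagocytosis and platelet shape change. In red cells short actin filaments tie the spectrin network under the membrane. Tuba1b encodes an alpha-tubulin, which pairs with beta-tubulin to form microtubules, the tracks of intracellular transport and the material of the mitotic spindle and of the ring that keeps platelets flat. Both genes are widely used as loading references. Both belong to families of very similar genes, with Actg1 beside Actb and with Tuba1a and Tuba1c beside Tuba1b, and Actb has many processed copies in the genome. Probe sequences were not used here, so signal from such relatives cannot be told apart from signal of the named gene.

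Each probe was printed as 20 spots scattered over every array, which shows the spread of repeated spots within an array. All 200 Actb spots and all 200 Tuba1b spots of the 10 arrays were well above background and none was saturated. The scanner software marked 6 Actb and 19 Tuba1b spots as outliers, and these were left out, although keeping them moved no array's mean by more than 0.0053 log2 units for Actb and 0.011 for Tuba1b. The SD between spots of an array had a median of 0.030 log2 units for Actb (range 0.015 to 0.047) and 0.031 for Tuba1b (range 0.015 to 0.055). Between the 8 arrays of run 1 the SD of the scaled level, defined below, was 0.18 log2 units for Actb and 0.33 for Tuba1b, or 6.16 and 10.7 times the median spot SD. An array's level is a mean over its spots. The SE of that mean from the spots was at most 0.010 log2 units for Actb and 0.013 for Tuba1b. The spot SD holds no labelling or hybridisation error, and arrays of separate mice differ by these as well as by the mice.

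Before any scaling between arrays, the mean Actb signal of the controls, in scanner intensity units, was 18352, 21542, 26328, 18322 and 22488 for replicates 1 to 5. After MWCNT it was 24545, 18719 and 18366 for replicates 1 to 3 and 13561 and 16352 for replicates 4 and 5. Both run 2 arrays thus lay below all 8 arrays of run 1. The mean Tuba1b signal of the controls was 2439, 3122, 4268, 2145 and 3912, and after MWCNT it was 4362, 2715 and 2780 in run 1 and 2147 and 2817 in run 2. For Tuba1b the run 2 arrays lay inside the range of run 1, at its lower end and near its middle. Control 3 and MWCNT replicate 1 were the brightest arrays for both genes.

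**Figure D1:**
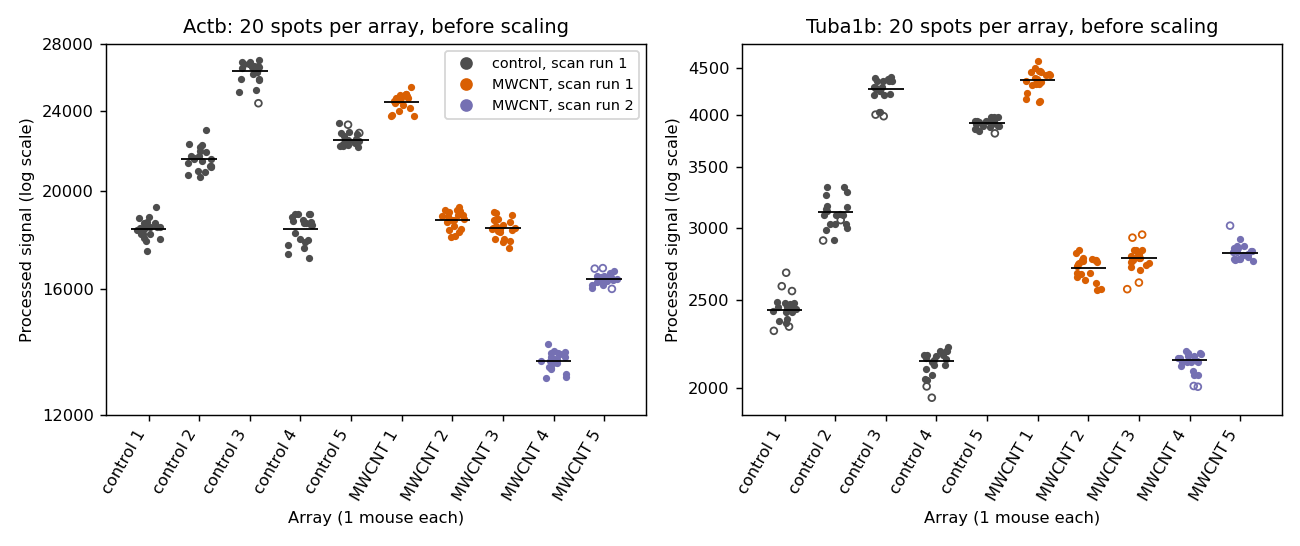
Processed signal (log axis) of every Actb spot (left) and Tuba1b spot (right) on the 10 arrays, before scaling. Points are spots, open points are spots marked as outliers and left out, and bars are the array means. Spots of an array cluster tightly, with a median SD of 0.030 and 0.031 log2 units, and both run 2 arrays lie below all run 1 arrays for Actb but not for Tuba1b.

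To compare arrays, log2 signals were expressed relative to their 75th percentile on that array, computed from the probes that were well above background everywhere. On this scale the Actb level of the controls was 3.97, 4.21, 4.50, 4.10 and 4.09, and after MWCNT it was 4.31, 3.95, 4.12, 2.93 and 3.19, in replicate order. MWCNT replicates 1 and 3 lay within the control range, replicate 2 lay just below the lowest control, at 3.97, and the last pair, from run 2, lay well below all other arrays. The Tuba1b level of the controls was 1.06, 1.42, 1.88, 1.01 and 1.57, and after MWCNT it was 1.82, 1.16, 1.39, 0.27 and 0.66. Again replicates 1 to 3 overlapped the controls and replicates 4 and 5 lay below them. Within run 1 Actb spanned a 1.47-fold range, from MWCNT replicate 2 to control 3, and Tuba1b a 1.83-fold range, from control 4 to control 3. The control SD of Actb, 0.20 log2 units, was smaller than that of most probes (25.3% had a smaller one), while that of Tuba1b, 0.36, was above the median of 0.30 over all probes (63.6% had a smaller one).

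The comparison of MWCNT with control asked whether the exposure was followed by another abundance of these transcripts in blood. Neither gene differed beyond the spread between arrays. The mean Actb level was 3.70 ± 0.60 (SD, n = 5) in the exposed mice, against 4.18 ± 0.20 (SD, n = 5) in the vehicle group, a log2 difference of -0.47 (SE 0.27, 95% interval -1.06 to 0.11, limma adjusted p = 0.808). For Tuba1b the exposed mice were at 1.06 ± 0.61 (SD, n = 5), against 1.39 ± 0.36 (SD, n = 5) in the vehicle group, a log2 difference of -0.33 (SE 0.29, 95% interval -0.96 to 0.30, limma adjusted p = 0.808). These intervals still allow a 2.08-fold lower Actb level and a 1.94-fold lower Tuba1b level after MWCNT. limma called 0 of the 27845 probes tested, 0% of the array, with 798 at an unadjusted p under 0.05. A lower mean after MWCNT was found for 55.3% of all probes, with a median of -0.05 over them. Bulk blood RNA cannot tell fewer cells of a type from less RNA per cell.

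The 2 arrays of run 2 carried this difference. On run 1 alone Actb was at 4.12 ± 0.18 (SD, n = 3) after MWCNT, against the 4.18 of the controls, and Tuba1b at 1.46 ± 0.33 (SD, n = 3), against 1.39. With the scan run as a block, where only run 1 informs the estimate, the log2 difference was -0.050 for Actb (SE 0.17, 95% interval -0.42 to 0.32) and 0.071 for Tuba1b (SE 0.24, 95% interval -0.45 to 0.59), both with a limma adjusted p of 1.00. Against the full comparison the Actb difference had shrunk nearly to 0 and the Tuba1b difference had turned its sign. In that fit the interval for Actb ran from 1.34-fold lower to 1.25-fold higher, and that for Tuba1b from 1.37-fold lower to 1.51-fold higher. The first position number in the array headers, called column here, also followed the group in run 1. There 4 controls filled the first column and control 5 shared the second with MWCNT replicates 1 to 3. With run and column together as a block, where only control 5 stands against those 3 arrays, Actb was at 0.031 (SE 0.27) and Tuba1b at -0.11 (SE 0.38). Leaving out single arrays kept the sign of both genes, with Actb from -0.63 without MWCNT replicate 1 to -0.28 without MWCNT replicate 4. Tuba1b ranged from -0.52 without MWCNT replicate 1 to -0.13 without MWCNT replicate 4, and it was -0.20 without control 3 and -0.23 without MWCNT replicate 5.

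**Figure D2:**
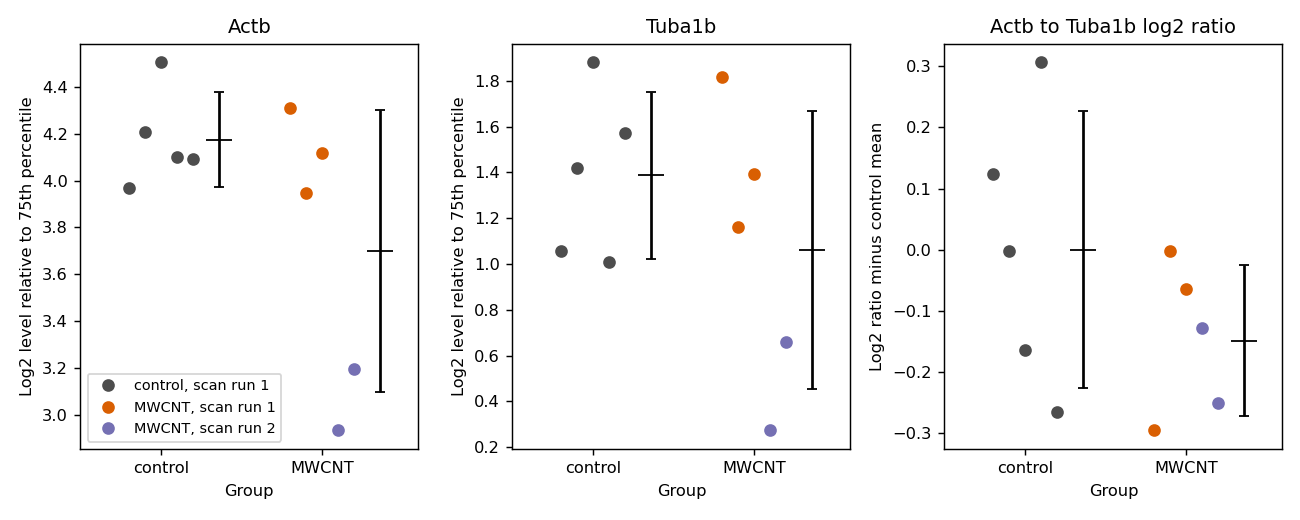
Scaled log2 level of Actb (left) and Tuba1b (middle) and the log2 ratio of Actb to Tuba1b minus its control mean (right), for 5 control and 5 MWCNT arrays, with bars for the mean and SD. The MWCNT arrays of run 1 overlap the controls in all panels, and those of run 2 lie below them for each gene but inside the control range for the ratio.

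The comparison of scan runs within the MWCNT group set replicates 4 and 5 against replicates 1 to 3, so that the exposure was the same on both sides. Both genes were lower in run 2, Actb 2.09-fold and Tuba1b 1.99-fold. Actb averaged 3.06 ± 0.19 (SD, n = 2) in run 2 and 4.12 ± 0.18 (SD, n = 3) in run 1, a log2 difference of -1.06 (SE 0.22, limma adjusted p = 0.0264). Tuba1b averaged 0.47 ± 0.27 (SD, n = 2) and 1.46 ± 0.33 (SD, n = 3), a log2 difference of -0.99 (SE 0.27, limma adjusted p = 0.0402). Such calls were common on these arrays: limma called 27.7% of 27907 probes between the runs and 16% in the lower direction, and the median over all probes was -0.22, with a lower mean in run 2 for 59.4%. Of the 7737 calls 3261 were higher and 4476 lower, a split that moved with the scaling, to 8037 and 61 without scaling, 6920 and 167 relative to the other 12 reference genes, 3558 and 2183 with quantiles equalised, 3336 and 1725 with cyclic loess, 3479 and 2136 in the deposited values and 2998 and 11167 after normexp. Both genes lay below every MWCNT array of run 1, as did 38.3% of probes. A fit of all 10 arrays with group and run must give the same estimates, since run 2 holds no control. For the run difference the controls inform only the error estimate. That fit had SE 0.21 and 0.30 and called both genes, with 33% of probes called and 19.7% called lower. Of the 14 reference genes above background, which include Actb and Tuba1b, 13 were lower in run 2 on this scale. The 5 that passed the test also include both members. The calls of Actb and Tuba1b ended with the loss of most single arrays: the limma adjusted p was 0.0634 and 0.0838 without MWCNT replicate 1, 0.0673 and 0.0684 without replicate 2, 0.0724 and 0.0954 without replicate 3 and 0.109 and 0.168 without replicate 4. Without replicate 4 or 5, run 2 holds 1 array, whose spread is taken to be that of run 1. Without replicate 5 both genes stayed called, at 0.0295 and 0.0401. With 2 mice in run 2 and no control, run and mouse cannot be told apart.

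The position of these genes among all probes was low but not extreme in either comparison. A log2 difference at or below that of Actb was found for 5.42% of probes between MWCNT and control and for 10.6% between the runs. For Tuba1b the shares were 15.8% and 13.6%. These shares are a description of the arrays, with no test.

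**Figure D3:**
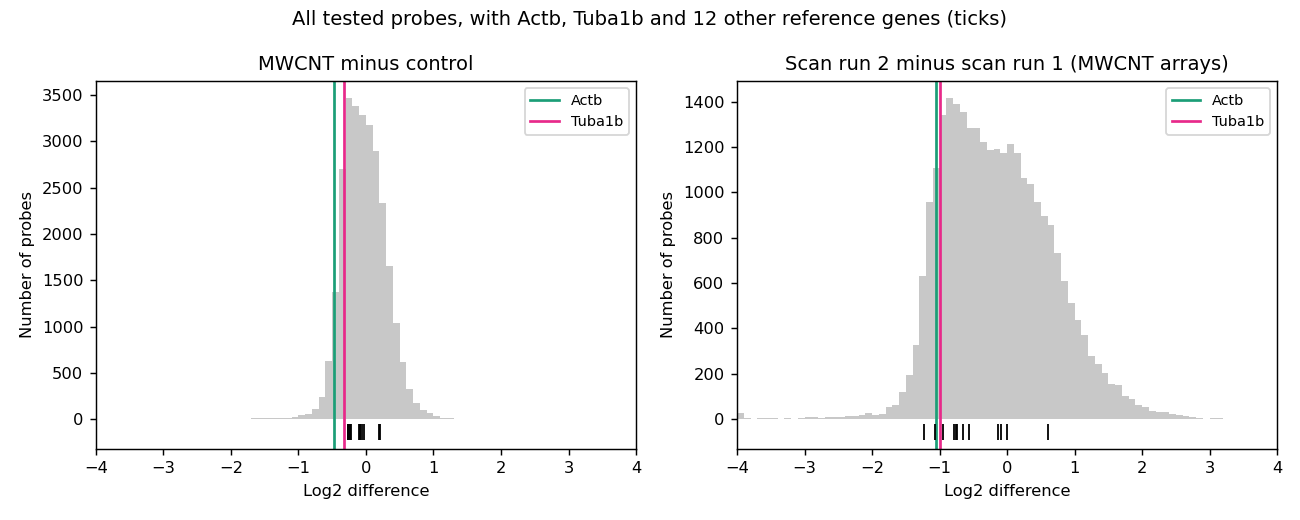
Number of probes by log2 difference for MWCNT minus control (left) and run 2 minus run 1 within MWCNT (right), in bins of 0.1 with values beyond 4 in the outermost bins. Lines mark Actb and Tuba1b and ticks the other 12 reference genes above background; between the runs both lines sit near -1, on the lower side of a wide distribution.

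The size of the run difference depended on how arrays were made comparable. Run 2 also differed in signal as a whole. The 75th percentile of its signal was 1776 and 1786 intensity units, against 1058 to 1317 in run 1, and the median signal of its negative probes was 40.5 and 42.2 units, against 62 to 72. On run 2, 55.2% and 58.5% of probes were well above background, against 42.0% to 47.7% on run 1. The difference in signal between Gapdh control probes named for the 3' and 5' ends was 1.23 and 1.25 log2 units in run 2, inside the 0.90 to 1.58 of run 1. For the Pgk1 control probes it was 7.65 and 8.39 log2 units, against 7.17 to 8.20 in run 1, so that MWCNT replicate 5 lay above that range. The part of these differences in the result was not tested. Without any scaling the difference between runs was -0.45 (SE 0.24, limma adjusted p = 0.218) for Actb and -0.38 (SE 0.29, limma adjusted p = 0.376) for Tuba1b, so neither passed, while the median probe stood at 0.39. Relative to the mean of the other 12 reference genes it was -0.53 (SE 0.24, limma adjusted p = 0.14) for Actb and -0.46 (SE 0.26, limma adjusted p = 0.226) for Tuba1b. All of those 12 genes but Hsp90ab1 were themselves lower in run 2 on the percentile scale. Scaling to them therefore takes away part of the difference seen on that scale. Quantile normalization gave -0.64 (limma adjusted p = 0.0787) and -0.91 (limma adjusted p = 0.0537), and cyclic loess -0.49 (limma adjusted p = 0.145) and -0.67 (limma adjusted p = 0.116). Both genes stayed called in other settings. Normexp gave -1.04 (limma adjusted p = 0.00842) for Actb and -0.95 (limma adjusted p = 0.0154) for Tuba1b. Median scaling gave -0.98 (limma adjusted p = 0.0266) and -0.92 (limma adjusted p = 0.0379). The 75th percentile over all probes gave -0.98 (limma adjusted p = 0.0278) and -0.92 (limma adjusted p = 0.0451).

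Without scaling, the differences of both genes had the opposite sign to that of the median probe. The raw Actb signal in run 2 was below that of all 8 run 1 arrays, which held for 2.84% of probes. The scaled levels of both genes met the same condition along with 24% of probes. Actb stayed below all 8 run 1 arrays under every scaling tried, among them quantile normalization, where 20.2% of probes did so, cyclic loess (17.6%), normexp (45.6%), the deposited values (20.1%) and scaling to the other 12 reference genes (7.1%). Tuba1b met the condition under each of these except cyclic loess, and not without scaling.

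In the log2 values of the authors' deposited table both genes were again lower on the run 2 arrays than on all 8 run 1 arrays. Its normalization is not stated, and its values are nearly those of quantile-normalized scanner signals. For Actb it held 13.56 and 13.88 for run 2 and 14.17 to 14.65 for the 8 arrays of run 1, with a mean of 14.11 ± 0.39 (SD, n = 5) in the exposed mice and 14.37 ± 0.17 (SD, n = 5) in the vehicle group. For Tuba1b it held 10.59 and 11.06 for run 2 and 11.29 to 12.17 for run 1, with a mean of 11.38 ± 0.57 (SD, n = 5) in the exposed mice and 11.67 ± 0.36 (SD, n = 5) in the vehicle group. The MWCNT minus control differences from this table were -0.26 (SE 0.20, limma adjusted p = 0.843) and -0.29 (SE 0.28, limma adjusted p = 0.843). Those between runs were -0.64 (limma adjusted p = 0.0799) for Actb and -0.91 (limma adjusted p = 0.0549) for Tuba1b.

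**Figure D4:**
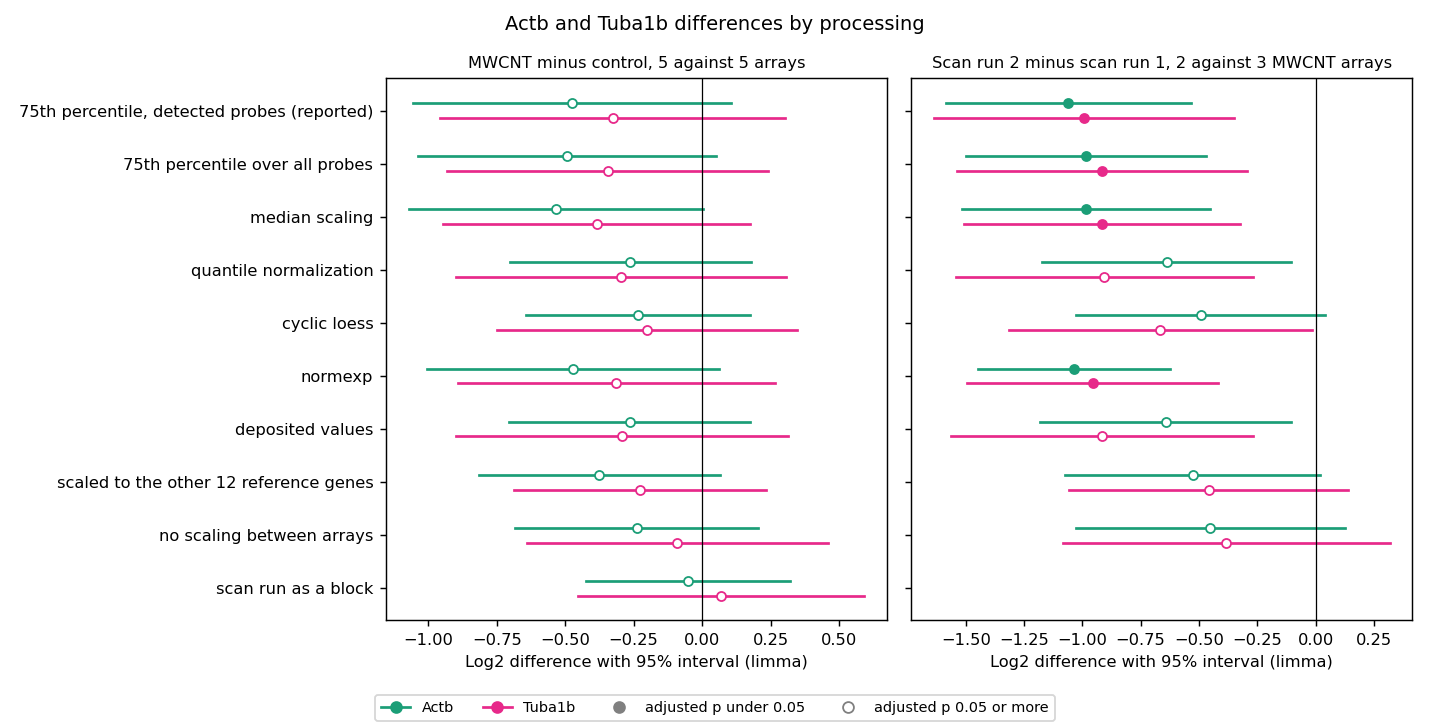
Log2 difference of Actb and Tuba1b with its 95% interval from limma, for MWCNT minus control (left) and run 2 minus run 1 within MWCNT (right), under each way of making arrays comparable; filled points have an adjusted p under 0.05. No point on the left is filled, and on the right only the percentile, median and normexp settings are.

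The ratio of Actb to Tuba1b on an array is free of any factor that multiplies all signals of that array, so it was used to ask whether the genes moved apart. Its absolute size depends on the probes and is not a ratio of transcripts, so values are given relative to the control mean. On the log2 scale the controls were at 0.12, -0.0015, -0.16, 0.31 and -0.27, and the MWCNT arrays at -0.30, -0.0028, -0.06, -0.13 and -0.25. The groups overlapped, and the run 2 arrays lay within the range of run 1. The exposed mice were at a mean of -0.15 ± 0.12 (SD, n = 5), the SD of the controls was 0.23 (n = 5), and the difference of -0.15 was within the spread (2-sided exact permutation p = 0.246, 252 assignments). On run 1 alone it was -0.12 (exact permutation p = 0.429, 56 assignments). Leaving out control 4 gave -0.072 and leaving out control 5 gave -0.21. Between the runs, within MWCNT, the difference was -0.07 (exact permutation p = 0.6, where 0.1 is the smallest that 10 assignments allow). That value turned to 0.27 after quantile normalization, which reshapes the signal within an array (exact permutation p = 0.2).

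Actb and Tuba1b moved together across mice of run 1, though the relation was drawn from only 8 arrays and weakened in some settings. Runs stand apart, so the correlation was computed over the 8 arrays of run 1, where Pearson's r was 0.85 (exact permutation p = 0.00642) and Spearman's rho 0.71 (exact permutation p = 0.0576). This was the only pair tested, but members and tests were chosen with earlier results of these data known, and the p-values are unadjusted. Without MWCNT replicate 1 and control 3, the arrays farthest from the median of Actb, r fell to 0.54 (exact permutation p = 0.267, n = 6). Those were the highest arrays of run 1 for both genes. Leaving them out narrows the range of Actb, which by itself tends to lower r. The fall thus cannot tell whether the relation rests on those arrays. With each array set against its group mean r was 0.88, and with median scaling 0.60 (exact permutation p = 0.112). Spearman's rho with median scaling was 0.33 (exact permutation p = 0.428). Levels on an array share the scaling and the labelled sample, which also ties probes together.

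**Figure D5:**
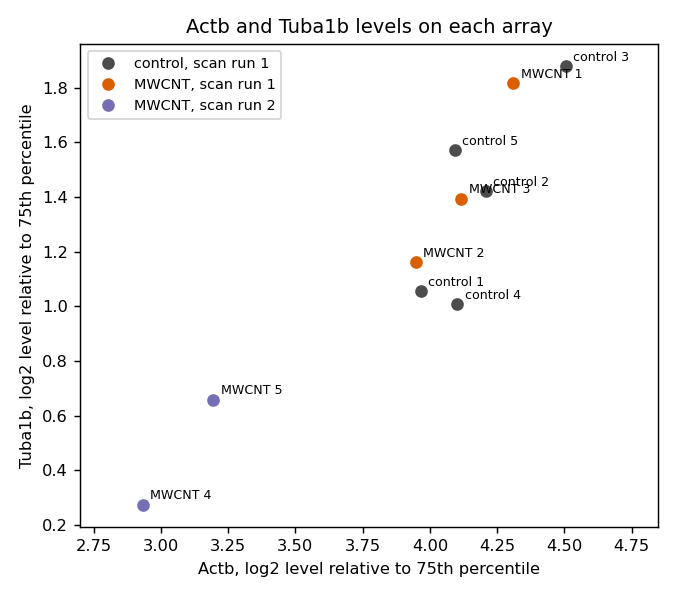
Scaled log2 level of Tuba1b (vertical) against that of Actb (horizontal) on each of the 10 arrays. The 8 arrays of run 1 lie along a rising line (r = 0.85) with control 3 and MWCNT replicate 1 at its top, and the 2 arrays of run 2 lie apart at the lower left.

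Only reference genes carry names, so the genes named as most like each member over the 8 arrays of run 1 could come from that panel alone. For Actb these were the glycolytic enzyme gene Gapdh (r = 0.89), Tuba1b (r = 0.85) and Ppia, which encodes the prolyl isomerase cyclophilin A (r = 0.80). For Tuba1b they were Ppia (r = 0.95), Hprt, an enzyme of purine salvage (r = 0.92), and Gapdh (r = 0.91). As a description, 1.13% of all probes followed Actb as closely as Tuba1b did, while 10.5% followed Tuba1b as closely as Actb did. For Gapdh and Ppia beside Actb the shares were 0.47% and 2.51%. For Ppia, Hprt and Gapdh beside Tuba1b they were 2.82%, 4.87% and 5.93%. The SD of the log2 ratio of Actb to Tuba1b over run 1 was 0.20, which ranked 13 from the steadiest among 91 pairs of the 14 reference genes, and over all 10 arrays it was 0.19, which ranked 8.

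Other genes of the cytoskeleton and most blood cell markers could not be set beside these values, since the files do not pair their probes with names. None of the 34 listed actin, tubulin and regulator genes has a named probe, and of 26 blood cell markers Tfrc, a marker of immature red cells, has. On the scaled log2 level Tfrc was at -0.996, -0.41 and -0.30 in MWCNT replicates 1 to 3 of run 1 and at -0.55 and -2.08 in replicates 4 and 5 of run 2. Replicate 4 thus lay within the run 1 MWCNT values and replicate 5 far below them. The log2 difference of run 2 from run 1 was -0.74 (SE 0.47, limma adjusted p = 0.245), and that of MWCNT from control was 0.20 (SE 0.30, limma adjusted p = 0.838), or 0.50 (SE 0.31, limma adjusted p = 1.00) with the scan run as a block. The part of cell composition in the levels of Actb and Tuba1b was not tested.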

How the data were processed

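RNA from whole blood of 10 mice was measured on 10 arrays, and groups and replicate numbers came from the labels. Replicates were separate mice. Spot intensity values were extracted by the authors with Agilent Feature Extraction 11.0.1.1, per the file headers, and its processed signal was used. The sources used here do not say which background and trend corrections that signal holds. The deposited table holds log2 values, a scale taken from its correlation of 0.988 to 1.00 with the scanner values. How its arrays were made comparable is not given in those sources.

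Control spots, negative probes and outlier spots were left out and log2 spot values of a probe averaged. A probe was well above background on an array if at least 50% of its spots were, and was tested if so on at least 5 of 10 arrays with a value on every array fitted. Arrays were scaled by their 75th percentile, computed from those of 23245 everywhere well-detected probes that had a value on each array. For comparisons limma 3.58.1 (lmFit, then eBayes) was run under R 4.3.3. Its 2-sided p-values were adjusted by Benjamini-Hochberg across the probes tested, and 0.05 was the limit for a call. The ratio and the correlation were tested by exact permutation. The limma step was tested on simulated data. All 15 accessions matched the RefSeq genes of GRCm38.p6, from which only names were taken because the array headers name another build. Normexp, with an offset of 50, used the median spot signal in place of the mean. Members, lists, alternatives and tests were chosen with earlier results of these data known. The genes named as most alike are the 3 reference genes with the highest Pearson r to each member over run 1. Scaling to the other reference genes and no scaling were added after seeing the data.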

Additional observations from a re-analysis of the deposited data

Results flagged for a closer look

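No array stood far enough from the others of its group to pass Dixon's critical value of 0.71. The 6 sets of 5 values tested were the levels of Actb and Tuba1b and their ratio in each group, and the highest value was 0.554, for Actb in control 3. MWCNT replicates 4 and 5 lay low together, which this test does not detect.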

How the results depend on the processing

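In limma neither gene passed between MWCNT and control under any of 24 alternatives. The Actb difference of -0.47 shrank to -0.26 with quantile normalization and deposited values, -0.23 with cyclic loess and -0.24 without scaling, and the Tuba1b difference of -0.33 to -0.20 with cyclic loess and -0.091 without scaling. The sign turned for Actb with run and column as a block, at 0.031, and for Tuba1b with the run as a block or run 1 alone, at 0.071 in each. The run and column block called 8 probes, neither gene among them, and every other alternative 0. Since each replicate number holds 1 array per group, the replicate block cannot move a difference of means. The differences stayed at -0.47 and -0.33 with 0 calls, and the ratio at -0.15 (exact sign-flip permutation p = 0.438). Deviations of mice of equal number from their group means correlated at -0.45 to 0.33, and 1 of 5 matched its own number best. The MWCNT deviations also hold the run difference, so these values cannot decide whether equal numbers mark pairs. Numbers were not taken as pairs. Leaving out 1 array gave -0.63 to -0.28 for Actb, -0.52 to -0.13 for Tuba1b, -0.21 to -0.072 for their ratio and 0 calls throughout.

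Between runs both genes stayed lower in run 2 everywhere, but calls ended for Actb with quantile normalization (-0.64), cyclic loess (-0.49), deposited values (-0.64), no scaling (-0.45) and the other reference genes as scale (-0.53), and for Tuba1b at -0.91, -0.67, -0.91, -0.38 and -0.46. Leaving out 1 array gave -1.19 to -0.93 for Actb and -1.18 to -0.80 for Tuba1b. The calls of both ended without MWCNT replicate 1, 2, 3 or 4, with adjusted p up to 0.168, where fewer arrays remain. The 7737 calls became 5061 with cyclic loess, 14165 with normexp and 26950 with no filter, and 0 to 8865 with 1 array left out: 711 without MWCNT 1 and 0 without MWCNT 2, 3 or 4, with 10914, 10901 and 8294 probes at an unadjusted p under 0.05.

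The ratio between groups turned to 0.035 with quantile normalization and to 0.028 with deposited values (exact permutation p = 0.833 and 0.841). Between runs it turned to 0.27 with both and to 0.17 with cyclic loess, and leaving out 1 array gave -0.16 to -0.0078. The correlation of 0.85 became 0.60 with median scaling and 0.54 without its 2 outermost arrays. The cause of these changes was not tested, and the number of arrays limits the precision.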

Other observations

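Hsp90ab1, a cytosolic chaperone gene, Nono, a gene of a nuclear RNA-binding protein, and Tfrc changed the sign of their correlation with Actb and Tuba1b when run 2 was included. They were chosen after their values were seen, and the correlations are descriptions over arrays that share a scaling. Over all 10 arrays r also takes in the shift of each gene between the runs. Within MWCNT the log2 difference of run 2 from run 1 was 0.61 for Hsp90ab1, -0.66 for Nono and -0.74 for Tfrc. It was -1.06 for Actb and -0.99 for Tuba1b. A change of sign here thus need not mean another relation among the mice of a run. Over the 8 arrays of run 1 Hsp90ab1 had r = 0.50 with Actb and 0.29 with Tuba1b, and over all 10 arrays -0.80 and -0.66. Nono had r = -0.67 with Actb and -0.88 with Tuba1b over run 1, and 0.47 and 0.17 over all 10 arrays. Tfrc had r = -0.42 and -0.30 over run 1, and 0.16 and 0.049 over all 10 arrays. The reference gene Gk changed sign with Tuba1b alone, from 0.015 to -0.034, values too small to read a direction from.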
